A study of Mus musculus with 12 samples.

Results

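The genes described here are the heat shock proteins and cochaperones measured on these arrays. The rule that chose them uses symbols alone and no measured value, but it was set with earlier results of these data known. A gene belongs to the set if its symbol starts with Hspa, Hspb, Hsph, Hspd, Hspe, Hsp90a, Dnaja, Dnajb or Dnajc, or if it is Hsf1, Hsf2, Bag3 or Stip1. The 5 endoplasmic reticulum genes Hspa5, Hsp90b1, Dnajb9, Dnajb11 and Dnajc3 were left out. The rule found 69 of the 18193 genes that the array's annotation names, and 54 of them lay above the brightness limit and were tested among 10916 genes. Hsf1, the master heat shock factor, and Hsp90ab1, the constitutive HSP90, were not analysed here, nor was Dnajc19, whose 3 probe sets carry several symbols. The set is wider than the cytosol. Hspd1, Hspe1, Hspa9, Dnaja3, Dnajc11, Dnajc15 and Dnajc30 act in mitochondria. Dnajc1, Dnajc10 and Hspa13 belong to the endoplasmic reticulum. Hspbap1 was matched by its letters and is a protein that binds a heat shock protein rather than a chaperone.

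RNA was measured in B16-F10 cells, an established pigmented melanoma line from mouse, grown in DMEM with bovine growth serum. The cells received the vector pMES, either empty, with the forkhead factor FoxD3 of chicken, or with FoxD3-VP16, in which the activation domain of VP16, a herpesvirus protein, stands in place of the C-terminal part that represses transcription. In all 3 vectors the chick beta-actin promoter drives 1 transcript that also yields EGFP through an internal ribosome entry site, so that the control cells carry EGFP and the promoter too. Cells with EGFP were collected by flow sorting 24 h after they were transfected, and each group had 4 arrays. The transgene is thus a transient, forced expression in 1 cell line, and the labels do not say whether the replicates were separate cultures. In bulk samples like these, fewer cells of a type and less RNA per cell cannot be told apart.

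Heat shock proteins keep other proteins folded. HSP70 binds and releases unfolded stretches, J-domain proteins (the DNAJ families) bring it clients and start its ATP cycle, and exchange factors such as Bag3 and the HSP110 protein Hsph1 end the cycle. Hop, the product of Stip1, hands clients from HSP70 to HSP90, the HSPB proteins hold unfolded proteins without ATP, and Hspd1 with its lid Hspe1 folds proteins inside mitochondria. Heat shock factors bind alternating GAA and TTC units in the promoters of the inducible members, among them Hspa1b, Hspb1, Dnajb1, Hsph1 and Bag3, while others, such as Hspa8, are made at high level in unstressed cells.

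Promoters are shown for Hspb1 and Dnajb5, the members that rose with FoxD3 without a block, and for Hspa1b, the classical inducible HSP70, which rose when arrays of the same replicate number were compared. Each sequence is the 250 bases before the annotated start, from RefSeq on GRCm38.p6, written 5' to 3' on the strand of the gene. Capitals mark GAANNTTC, which reads the same on both strands, and no other motif searched occurs in these 3 windows. The windows are chr5:135887669-135887918 (plus strand), chr4:42949617-42949866 (plus strand) and chr17:34959239-34959488 (minus strand).
Hspb1: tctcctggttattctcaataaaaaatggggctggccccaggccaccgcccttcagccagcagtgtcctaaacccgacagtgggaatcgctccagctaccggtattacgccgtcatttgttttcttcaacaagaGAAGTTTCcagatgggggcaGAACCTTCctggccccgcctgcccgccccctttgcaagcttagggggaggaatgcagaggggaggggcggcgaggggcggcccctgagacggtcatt
Dnajb5: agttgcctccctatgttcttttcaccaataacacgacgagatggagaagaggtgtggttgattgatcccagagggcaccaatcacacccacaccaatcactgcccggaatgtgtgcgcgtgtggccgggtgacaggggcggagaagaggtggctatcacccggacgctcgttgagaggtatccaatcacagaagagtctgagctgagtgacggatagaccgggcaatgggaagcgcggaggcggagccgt
Hspa1b: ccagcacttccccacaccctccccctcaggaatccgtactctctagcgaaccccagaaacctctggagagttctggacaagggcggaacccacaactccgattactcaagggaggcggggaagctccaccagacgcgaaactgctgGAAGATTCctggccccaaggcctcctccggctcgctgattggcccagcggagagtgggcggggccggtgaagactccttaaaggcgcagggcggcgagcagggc
The Hspb1 window holds the motif 117 and 97 bases before the start, and the Hspa1b window 104 bases before it. Dnajb5 has further annotated starts, not shown, whose windows hold none of the motifs searched. Nor do the windows of Bag3 and Dnajb1. Hsph1 has TTCNNGAA 54 and 33 bases before its starts, and Dnajb4 14 bases before a start. Promoters were found for 56 of the 69 members, 73 in all with alternative starts. GAANNTTC was present in 12 of the 73 (16.4%) against 6.69% of all 32851 promoters of the table. TTCNNGAA was in 8 of the 73 against 7.17% of all. A run of 3 such units, which holds both of the shorter motifs, was in 4 (5.48%) against 0.466%: those of Hspd1, of Hspe1, which shares a divergent promoter with it, and of Dnajb6 at both of its starts. The forkhead core TGTTTAC, searched on both strands, was in 3 (4.11%) against 3.17%. The member counts hold some sites more than once, since windows of alternative starts overlap for Dnajb6 and Hsph1, and those of Hspd1 and Hspe1 overlap too. A match is only a description of the letters.

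Replicate number took 44.1% of the variance over the 54 tested members and the vector 43%; over all tested genes these shares were 50.1% and 30.8%. The 3 arrays numbered 1 stood apart: their hybridization controls had log2 values of 14.5 to 14.7 against 11.8 to 13.1 on the others, and their Gapdh 3' minus 5' differences, a measure of RNA quality, were 0.56 to 0.77 against -0.25 to 0.04. Each vector had 1 array of every number, and arrays of the same number deviated together, so that comparisons were also made with the number as a block. The 7 melanocyte markers lay above the brightness limit in all groups, and the log2 of their summed normalized intensities was 17.3 to 17.6. Of 4 keratinocyte markers 0 lay above the limit. Of 4 leukocyte markers on the array 1 did so in each group, and of 4 endothelial markers 1 with the empty vector and 0 with FoxD3 and FoxD3-VP16. Of 5 fibroblast markers 2, 3 and 3 did so. The log2 of their summed intensities was 7.68 to 8.72 with the empty vector, 8.67 to 9.40 with FoxD3 and 8.40 to 9.28 with FoxD3-VP16. The part of these array and marker differences in the results was not tested.

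With FoxD3, the small heat shock protein Hspb1 rose 4.45-fold and the J-domain protein Dnajb5 rose 2.79-fold, while Dnajb4, another member of the DNAJB family, fell 2.14-fold. With the activation domain in place of the repression domain, Hspb1 had a log2 difference of -0.06 from the empty vector (95% interval -0.475 to 0.351), and Dnajb4 lay 4.27-fold above its level with FoxD3. Of the 15 tested members given whether or not they passed, 6 rose with FoxD3 with the replicate number as a block. In that fit 11.8% of all tested genes rose, and the 15 were picked with earlier results of these data known. The 6 were Hspb1, Hspa1b, Dnajb1, Bag3, Hsph1 and Stip1, of which the last 5 did not pass in the main fit without the block. When the arrays numbered 1 were left out, Hspa1b, Dnajb1 and Hsph1 passed without the block too (adjusted p = 0.0230, 0.0283 and 0.0343). Stip1 then no longer passed with the block (adjusted p = 0.102). The other 9, Hspa8, Hsp90aa1, Dnaja1, Hspd1, Hspe1, Hspa4l, Hspa9, Hspb8 and Hsf2, passed in neither fit of FoxD3 against the empty vector. Heat-induced members did not all share a direction, since Dnajb4 fell while Hspb1 rose. Hsp90aa1 was among the 9, and the lack of a call gives it no direction. All values below are log2 of the normalized intensity plus 16, differences and standard errors (SE) are on that scale, and a gene is called changed at an adjusted p under 0.05 in limma over all 10916 genes. The scale understates the change of dim genes.

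For FoxD3 against the empty vector, which asks what FoxD3 itself changes, 2 of the 54 members rose (3.7%, where 2.89% of all tested genes rose) and 1 fell (1.85%, background 1.12%). With the replicate number as a block 11 rose (20.4%, background 11.8%) and 1 fell (1.85%, background 9.21%). The arrays of both groups did not overlap for 7 members (13%, background 11.5%): Hspb1, Dnajb5, Dnajb2, Dnajc5, Hsph1 and the mitochondrial import protein Dnajc15 on the higher side and Dnajb4 on the lower. Dnajc15 was barely apart, with its lowest FoxD3 array at 11.1678 and its highest empty-vector array at 11.1674, and was called in neither fit. The median difference of the members was 0.03 beside -0.004 for all genes, and 45 members lay within 0.5 of no difference. Without the 3 arrays numbered 1, 6 members were called without the block and 10 with it, where 870 and 1991 of all 10916 genes were. The share of members called in each direction without the block thus lay near the background, and the list is described through its single genes.

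FoxD3-VP16 against the empty vector asks what the activating form does. In limma without the block 0 members rose (background 0.522%) and 0 fell (background 0.0733%). An unadjusted p under 0.05 was found for 5 members (10.3% of all tested genes). With the block 4 rose (7.41%, background 5.73%) and 4 fell (7.41%, background 5.41%). Without the arrays numbered 1 the counts were 2 without the block and 10 with it, where 277 and 1439 of all 10916 genes were called. For 5 members the arrays did not overlap (9.26%, background 5.71%): Dnajb4, Dnajc1 and Dnajc12 above and Dnaja3 and Dnajb14 below the empty vector. The median difference was -0.03 beside -0.02 for all genes.

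FoxD3-VP16 against FoxD3 sets both domains side by side. In this comparison 3 members rose (5.56%, background 4.44%) and 5 fell (9.26%, background 5.13%). With the block 4 rose (7.41%, background 14.6%) and 17 fell (31.5%, background 17.5%). The arrays did not overlap for 8 members (14.8%, background 18.2%), and the median difference was -0.15 beside -0.03 for all genes. The 3 comparisons share their arrays in pairs, so a gene high with FoxD3 enters 2 of them with opposite signs, and its values are given side by side and not as separate evidence.

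**Figure D1:**
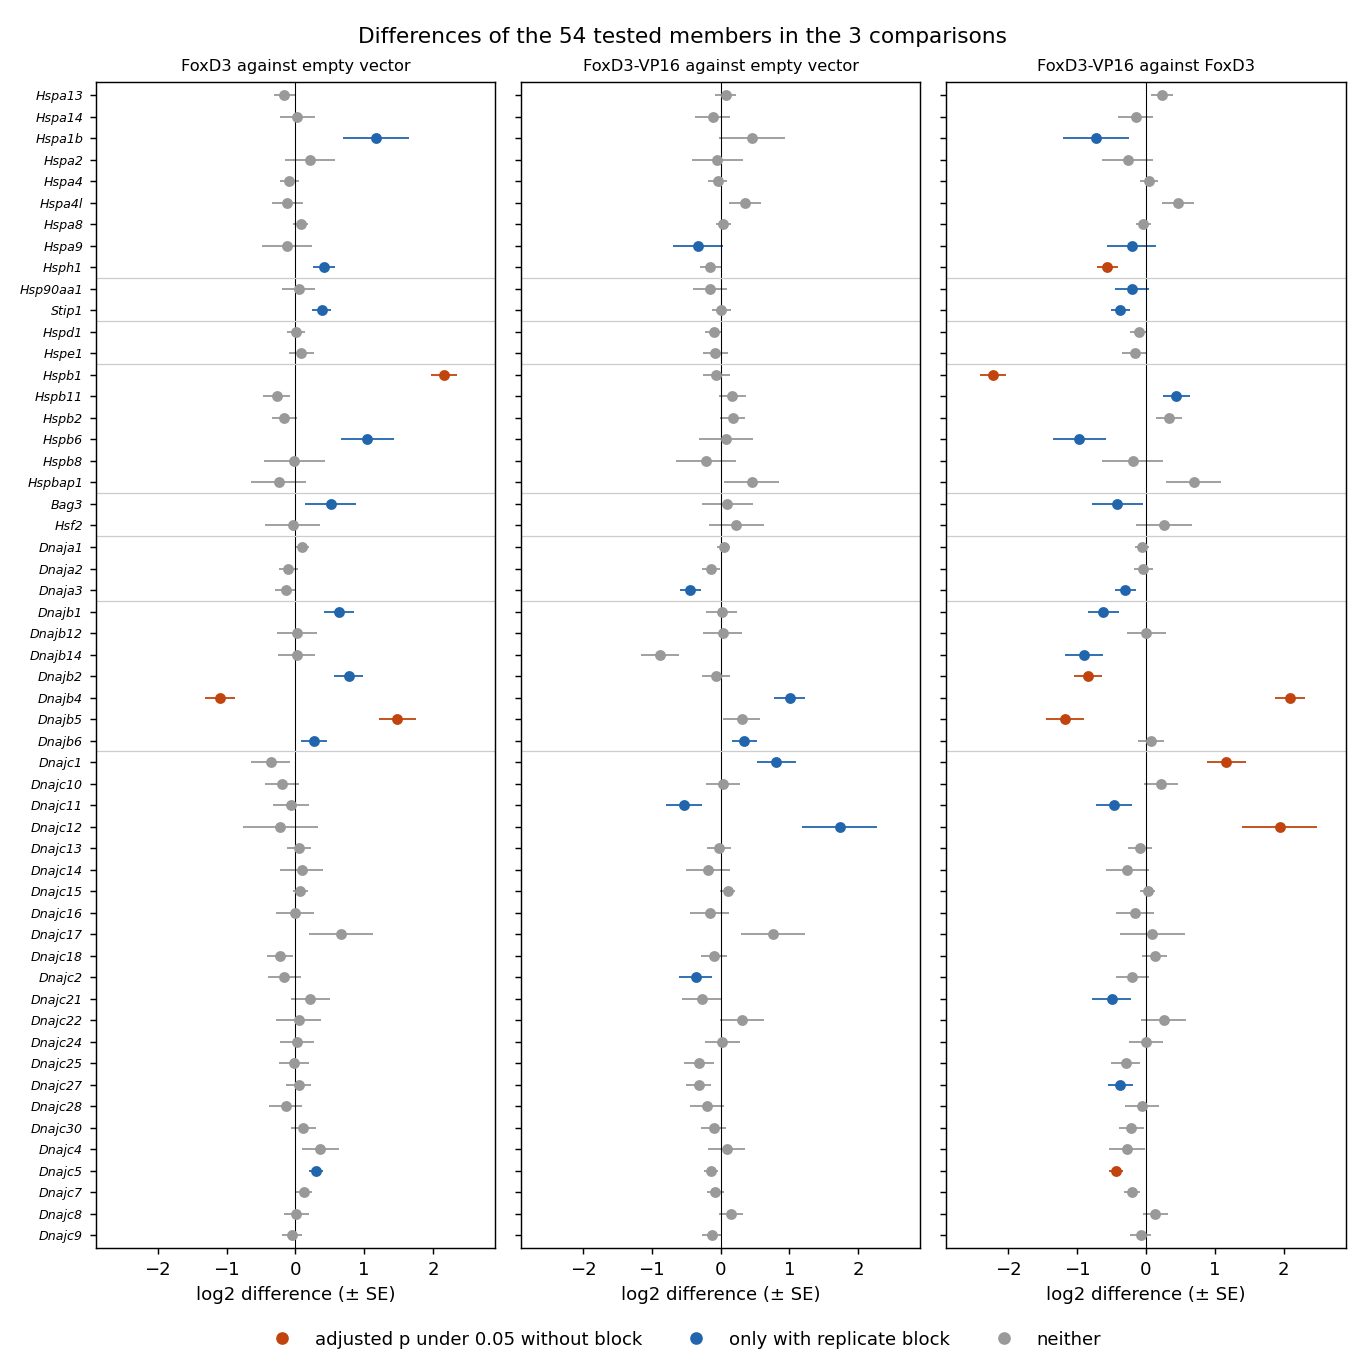
Log2 difference with its standard error (horizontal axis) of each of the 54 tested members, by family, in the 3 comparisons; orange points have an adjusted p under 0.05 without the block, blue points with the block only, grey points in neither fit. Most points lie near 0, and Hspb1, Dnajb4, Dnajb5, Dnajc1 and Dnajc12 lie farthest out among the orange ones.

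Of the 6 tested members grouped by their HSPB letters, among them Hspbap1 and Hspb11, Hspb1 alone was called without the block. Its levels in replicates 1 to 4 were 7.88, 8.19, 8.37 and 8.40 with the empty vector, 10.56, 10.17, 10.18 and 10.55 with FoxD3, and 8.42, 8.21, 7.79 and 8.17 with FoxD3-VP16. The lowest FoxD3 array lay above every array of the other groups, which overlapped each other. In deposited intensity the FoxD3 arrays read 1152 to 1523 and the other 8 arrays 209 to 328. The difference with FoxD3 was 2.15 (SE 0.19, adjusted p = 9.8e-05), that of FoxD3-VP16 against FoxD3 was -2.22 (SE 0.19, a 4.64-fold fall, adjusted p = 3.15e-05), and that of FoxD3-VP16 against the empty vector was -0.06 (adjusted p = 0.974). The other probe set of Hspb1 gave 2.04, -2.25 and -0.20. Both calls held under all 25 alternatives tried, with adjusted p-values of 3.41e-08 to 0.0013 for the rise and 1.55e-08 to 0.000812 for the fall, and the rise was 2.00 without the arrays numbered 1.

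Hspb6, a small heat shock protein best known from muscle, stood at 7.22, 8.64, 7.59 and 8.32 with the empty vector, 8.63, 9.16, 9.07 and 9.08 with FoxD3, and 6.88, 8.77, 8.35 and 8.09 with FoxD3-VP16. Only the FoxD3 array numbered 1 lay below the highest arrays of the other groups, those numbered 2. It had a difference of 1.05 with FoxD3 (SE 0.39, adjusted p = 0.185), and passed with the block (adjusted p = 0.00532); against FoxD3, FoxD3-VP16 had -0.96 (adjusted p = 0.151, with the block 0.0051). Hspb8, the partner of Bag3 in clearing misfolded proteins, had differences of -0.02, -0.21 and -0.19 in the 3 comparisons and passed in neither fit. Hspb11, which takes part in transport within cilia, was called only with the block in FoxD3-VP16 against FoxD3 (0.44, adjusted p = 0.0415, without the block 0.201), a call that ended without the arrays numbered 1 (0.34, adjusted p = 0.125). Hspb7, a small heat shock protein of heart muscle, was too dim on average to be tested, with mean levels of 5.02, 6.27 and 5.67 in the empty vector, FoxD3 and FoxD3-VP16 groups.

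Among the HSP70 proteins and their HSP110 relatives, 9 of 13 were tested. Hsph1, an HSP110 protein that releases nucleotide from HSP70, had levels of 12.31, 11.97, 12.12 and 11.997 with the empty vector, 12.73, 12.41, 12.44 and 12.45 with FoxD3, and 12.38, 11.95, 11.68 and 11.79 with FoxD3-VP16. The FoxD3 arrays lay above all others, by the smallest margin over the FoxD3-VP16 array numbered 1. It fell in FoxD3-VP16 against FoxD3 (-0.56, SE 0.16, adjusted p = 0.0415). With FoxD3 against the empty vector it had 0.41 (SE 0.16, adjusted p = 0.200) and passed with the block (adjusted p = 0.0044). Without the arrays numbered 1 this difference was 0.39 and passed also without the block (adjusted p = 0.0343). With the mean of all probe sets it was called without the block as well. Its call against FoxD3 held in 3 of the 12 fits that left out 1 array (highest adjusted p = 0.132, without FoxD3-VP16 replicate 3), and ended without any of empty-vector 3 and 4, all 4 FoxD3 arrays and FoxD3-VP16 2, 3 and 4. It also ended with the values as deposited, without the brightness filter and with only these 2 groups fitted (adjusted p = 0.0643, 0.0634 and 0.0656), and the 25 alternatives spanned 1.18e-05 to 0.132.

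Hspa1b, the stress-induced HSP70, read 9.60, 8.48, 7.58 and 7.39 with the empty vector, 10.24, 9.56, 8.84 and 9.11 with FoxD3, and 9.68, 8.65, 8.37 and 8.15 with FoxD3-VP16. The levels were highest on the arrays numbered 1 in every group, so that the groups overlapped, but within each number FoxD3 lay above the empty vector, by 0.64, 1.08, 1.25 and 1.71. The mean difference was 1.17 (SE 0.48, adjusted p = 0.234, with the block 0.000441). Without the arrays numbered 1 it was 1.40 and passed also without the block (adjusted p = 0.0230). FoxD3-VP16 had 0.45 against the empty vector (adjusted p = 0.867, with the block 0.115) and -0.72 against FoxD3 (adjusted p = 0.421, with the block 0.00632). The first of these passed with the block when the arrays numbered 1 were left out (0.61, adjusted p = 0.0489). All 3 probe sets had differences of 1.05 to 1.17 with FoxD3, but Hspa1a is a near-identical copy, and signal from it cannot be told apart here. The probe set named for Hspa1a was below the brightness limit.

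The constitutive HSP70, Hspa8, had a difference of 0.08 with FoxD3 (95% interval -0.155 to 0.308), 0.04 with FoxD3-VP16 and -0.03 between them. Its level averaged 15.2 and reached 15.3 where the brightest probe set of any gene reached 15.9, so a change may be understated. The mitochondrial HSP70, Hspa9, had -0.33 in FoxD3-VP16 against the empty vector (adjusted p = 0.870) and -0.21 against FoxD3 (adjusted p = 0.815), and it was lower in 4 of 4 pairs in both, so that it passed with the block (adjusted p = 0.00707 and 0.0250). The second of these block calls ended without the arrays numbered 1 (adjusted p = 0.0675). Hspa4l, an HSP110 protein of testis, passed in neither fit (-0.12, 0.35 and 0.47), but without those arrays its last 2 differences passed with the block (adjusted p = 0.0482 and 0.0428).

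Hsp90aa1, the inducible HSP90, had 0.05 with FoxD3 (95% interval -0.478 to 0.574) and -0.20 in FoxD3-VP16 against FoxD3 (adjusted p = 0.709), which passed with the block (adjusted p = 0.0438). Stip1, the adaptor between HSP70 and HSP90, stood at 10.37, 10.57, 10.69 and 10.55 with the empty vector, 11.03, 10.63, 11.12 and 10.93 with FoxD3, and 10.48, 10.44, 10.60 and 10.70 with FoxD3-VP16. Only the FoxD3 array numbered 2 lay within the range of the other groups. The differences of 0.38 with FoxD3 (adjusted p = 0.178) and -0.37 against FoxD3 (adjusted p = 0.126) passed with the block (adjusted p = 0.0209 and 0.0165), but without the arrays numbered 1 they did not pass with it either (adjusted p = 0.102 and 0.0608).

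Bag3, which exchanges nucleotide on HSP70 and is itself a heat shock gene, read 10.94, 9.56, 9.99 and 9.85 with the empty vector, 11.57, 10.03, 10.44 and 10.35 with FoxD3, and 10.95, 9.78, 9.94 and 10.05 with FoxD3-VP16. The arrays numbered 1 lay above the rest in each group by more than the vectors differed. Within numbers, FoxD3 lay 0.44 to 0.63 above the empty vector. The mean of 0.51 was not called (SE 0.37, adjusted p = 0.581) and passed with the block (adjusted p = 0.00293), as did -0.42 in FoxD3-VP16 against FoxD3 (adjusted p = 0.581, with the block 0.0062). Hsf2, the heat shock factor of development, had -0.04, 0.23 and 0.26 in the 3 comparisons and passed in neither fit.

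The mitochondrial chaperonin subunits Hspd1 and Hspe1 had differences of 0.01 (95% interval -0.270 to 0.281) and 0.09 (-0.311 to 0.482) with FoxD3, -0.10 and -0.08 with FoxD3-VP16, and -0.11 and -0.16 in FoxD3-VP16 against FoxD3. Both passed in neither fit.

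**Figure D2:**
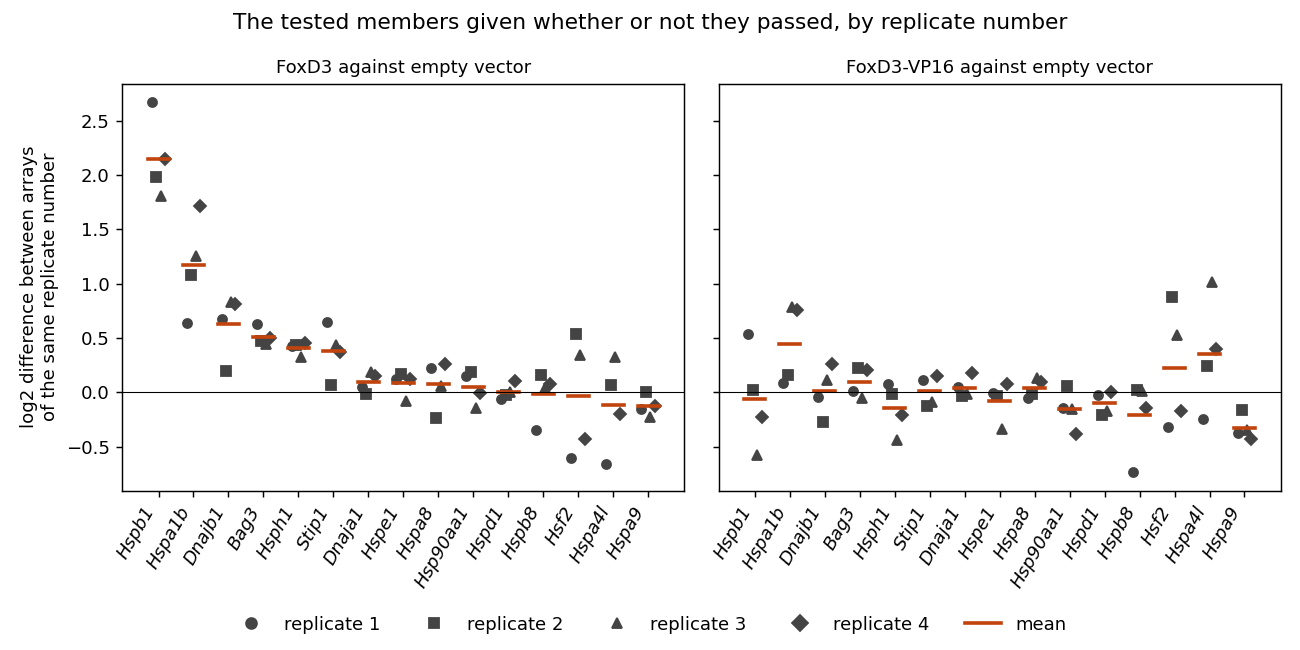
Log2 difference between arrays of the same replicate number (vertical axis) for the 15 tested members given whether or not they passed, ordered by their mean with FoxD3, for FoxD3 (left) and FoxD3-VP16 (right) against the empty vector; the marker shape gives the number and the orange bar the mean. For Hspb1, Hspa1b, Dnajb1, Bag3, Hsph1 and Stip1 all 4 FoxD3 points lie above 0, whereas those of the other 9 scatter on both sides of it.

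The DNAJ families, whose J domain switches HSP70 into its client-holding state, held 41 members, of which 33 were tested. With FoxD3 1 rose and 1 fell, and 5 and 1 did with the block (backgrounds 2.89% and 1.12%, with the block 11.8% and 9.21%). With FoxD3-VP16 0 rose and 0 fell (limma, 5 at an unadjusted p under 0.05, where 10.3% of all tested genes were). With the block 4 rose and 3 fell (backgrounds 5.73% and 5.41%). In FoxD3-VP16 against FoxD3 3 rose and 3 fell, and 3 and 9 did with the block (backgrounds 4.44% and 5.13%, with the block 14.6% and 17.5%). The DNAJB proteins, the HSP40 class with a glycine- and phenylalanine-rich region, had 7 members tested, of which 1 rose and 1 fell with FoxD3, and 4 and 1 with the block, against the same backgrounds as the DNAJ families in that comparison.

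Dnajb4, an HSP40 that is itself heat-induced, read 10.78, 10.45, 11.18 and 11.30 with the empty vector, 9.44, 10.07, 9.89 and 9.93 with FoxD3, and 11.50, 11.89, 12.13 and 12.20 with FoxD3-VP16. The 3 groups did not overlap, with FoxD3 lowest and FoxD3-VP16 highest. The difference was -1.09 with FoxD3 (SE 0.22, adjusted p = 0.0132) and 2.10 for FoxD3-VP16 against FoxD3 (SE 0.22, adjusted p = 0.000111). FoxD3-VP16 against the empty vector had 1.00 (SE 0.22, adjusted p = 0.0698), higher in 4 of 4 pairs, and passed with the block (adjusted p = 0.00112). It also passed without either FoxD3 replicate 1 or FoxD3-VP16 replicate 1 (adjusted p = 0.0492 and 0.0449). A further probe set gave -0.98, 1.23 and 2.22, and a dim one -0.56, -0.32 and 0.24. The fall with FoxD3 was not called when arrays were centred on their medians in place of quantile normalization (-1.06, adjusted p = 0.296) or without empty-vector replicate 3 (-1.01, adjusted p = 0.0515), and its adjusted p spanned 2.76e-07 to 0.296 over 25 alternatives. The rise in FoxD3-VP16 against FoxD3 held in all 25 (3.11e-09 to 0.0133).

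Dnajb5, an HSP40 related to Dnajb4 and Dnajb1, stood at 7.40, 7.50, 7.02 and 7.29 with the empty vector, 9.49, 8.08, 8.76 and 8.82 with FoxD3, and 7.92, 7.30, 7.72 and 7.49 with FoxD3-VP16. All FoxD3 arrays lay above the others, and the other groups overlapped. It rose by 1.48 with FoxD3 (SE 0.27, adjusted p = 0.00826) and fell by 1.18 in FoxD3-VP16 against FoxD3 (SE 0.27, adjusted p = 0.0165), with 0.30 in FoxD3-VP16 against the empty vector (adjusted p = 0.827). The probe set taken is of a kind that can detect more than 1 transcript. The next probe set, dimmer, gave 1.14 and was not called when it stood in (adjusted p = 0.307), nor was the mean of all 3 (0.86, adjusted p = 0.0777); the dimmest gave -0.03. The call against FoxD3 also ended without FoxD3 replicate 4 (adjusted p = 0.0523) and without FoxD3-VP16 replicate 2 or 4 (adjusted p = 0.0512 and 0.0511), with the mean of probe sets (0.0503) and with the next probe set (0.335). Over 24 alternatives the adjusted p spanned 1.36e-06 to 0.307 with FoxD3 and 2.33e-05 to 0.335 against FoxD3.

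Dnajb2, an HSP40 that carries ubiquitinated clients to the proteasome, read 9.05, 9.63, 8.88 and 9.10 with the empty vector, 9.96, 10.15, 9.73 and 9.92 with FoxD3, and 9.10, 9.58, 8.90 and 8.81 with FoxD3-VP16. The FoxD3 arrays were the 4 highest, and the array numbered 2 was the highest of each group. It fell in FoxD3-VP16 against FoxD3 (-0.84, SE 0.21, adjusted p = 0.0228). With FoxD3 it had 0.77 (adjusted p = 0.0585) and passed with the block (adjusted p = 0.000756) or without the array of replicate 2 of the empty vector or of FoxD3-VP16 (adjusted p = 0.0213 and 0.0425). Its call against FoxD3 ended without FoxD3 replicate 2 or 4 or FoxD3-VP16 replicate 3 or 4 (adjusted p = 0.0588 to 0.0766) and with arrays centred on their medians (adjusted p = 0.154, with 0.000121 to 0.154 over 25 alternatives).

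Dnajb1, the main heat-induced partner of HSP70, read 10.95, 10.63, 10.22 and 10.17 with the empty vector, 11.62, 10.83, 11.05 and 10.99 with FoxD3, and 10.90, 10.36, 10.34 and 10.44 with FoxD3-VP16. The FoxD3 array numbered 2 lay below the highest arrays of the other groups, and within numbers FoxD3 was the highest in 4 of 4. It had 0.63 with FoxD3 (SE 0.22, adjusted p = 0.151, with the block 0.00173) and -0.61 in FoxD3-VP16 against FoxD3 (adjusted p = 0.105, with the block 0.00109). Without the arrays numbered 1 both passed without the block as well (0.60, adjusted p = 0.0283, and -0.57, adjusted p = 0.0204).

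Dnajb6, which holds back aggregation of polyglutamine proteins, had block calls of the same sign with both transgenes. It had 0.27 with FoxD3 (adjusted p = 0.553, with the block 0.0195) and 0.35 with FoxD3-VP16 (adjusted p = 0.583, with the block 0.0105), higher in 4 of 4 pairs in each. The block call with FoxD3 ended without the arrays numbered 1 (0.23, adjusted p = 0.0801). Its probe sets disagreed: a dim one had 1.89 with FoxD3 and -1.93 in FoxD3-VP16 against FoxD3, and another -0.20 and 0.83. Dnajb14, an HSP40 anchored in the endoplasmic reticulum membrane, had -0.90 in FoxD3-VP16 against FoxD3 (SE 0.27, adjusted p = 0.0569, with the block 0.0205), and its arrays did not overlap, but its other probe set had -0.14, and without the arrays numbered 1 the block call ended (-0.56, adjusted p = 0.0508).

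**Figure D3:**
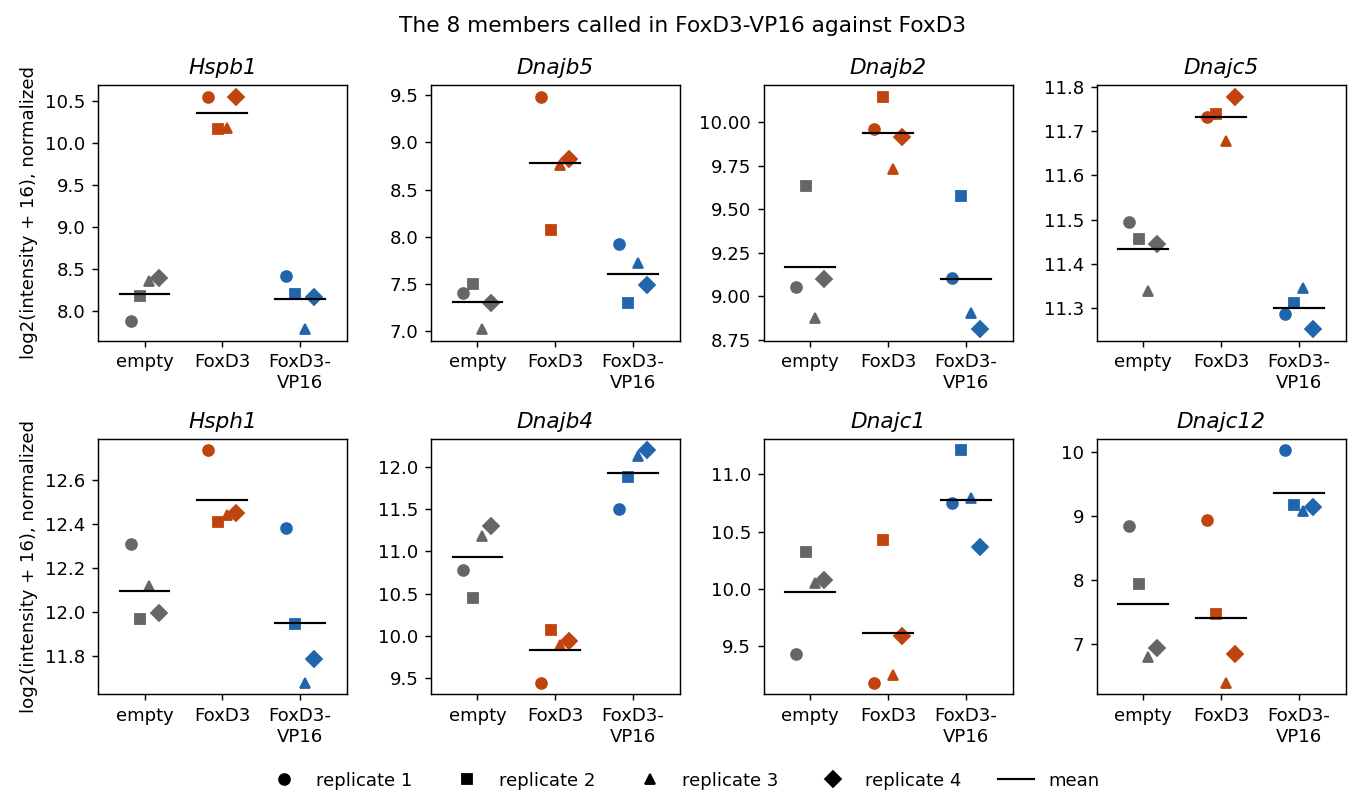
Normalized log2(intensity + 16) (vertical axis) on each of the 12 arrays for the 8 members called in FoxD3-VP16 against FoxD3, by vector; the marker shape gives the replicate number and the line the mean of 4 arrays. Hspb1, Dnajb5, Dnajb2, Dnajc5 and Hsph1 are highest with FoxD3, whereas Dnajb4, Dnajc1 and Dnajc12 are highest with FoxD3-VP16.

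The DNAJC proteins share only the J domain, and 23 of 26 were tested. With FoxD3 0 were called in limma without the block (backgrounds 2.89% higher and 1.12% lower). At an unadjusted p under 0.05 there was 1 (16.1% of all tested genes), and with the block 1 was called (backgrounds 11.8% and 9.21%). Dnajc5, the cysteine string protein of secretory vesicles, read 11.49, 11.46, 11.34 and 11.45 with the empty vector, 11.73, 11.74, 11.68 and 11.78 with FoxD3, and 11.29, 11.31, 11.35 and 11.25 with FoxD3-VP16. The FoxD3 arrays lay above all others. It fell by 0.43 in FoxD3-VP16 against FoxD3 (SE 0.10, adjusted p = 0.0177), and had 0.30 with FoxD3 (adjusted p = 0.142, with the block 0.0137). All 5 of its probe sets had these signs, at 0.30 to 0.71 and -0.31 to -0.64. The call ended without FoxD3 replicate 4 or FoxD3-VP16 replicate 4 (adjusted p = 0.0689 and 0.0601), with the mean of all probe sets (adjusted p = 0.0583) and with arrays centred on their medians (adjusted p = 0.311, with 0.000204 to 0.311 over 25 alternatives).

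Dnajc12, a J-domain protein that serves the aromatic amino acid hydroxylases, read 8.84, 7.94, 6.80 and 6.93 with the empty vector, 8.94, 7.47, 6.39 and 6.84 with FoxD3, and 10.03, 9.18, 9.09 and 9.13 with FoxD3-VP16. Every FoxD3-VP16 array lay above the 8 others, which mixed, with the array numbered 1 highest in each group. The rise against FoxD3 was 1.95 (SE 0.54, adjusted p = 0.0390), and against the empty vector FoxD3-VP16 had 1.73 (adjusted p = 0.241), which passed with the block (adjusted p = 0.000888). Without the arrays numbered 1 this was 2.01 and passed without the block too (adjusted p = 0.0247). The call against FoxD3 ended without any of FoxD3 replicates 2, 3 and 4 or of the 4 FoxD3-VP16 arrays (adjusted p = 0.069 to 0.123) and without the brightness filter (0.0506), with 2.25e-06 to 0.123 over 24 alternatives.

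Dnajc1, a J-domain protein of the endoplasmic reticulum membrane, read 9.43, 10.32, 10.05 and 10.08 with the empty vector, 9.18, 10.43, 9.25 and 9.59 with FoxD3, and 10.75, 11.21, 10.80 and 10.37 with FoxD3-VP16. FoxD3-VP16 lay above the empty vector without overlap and overlapped FoxD3 only through the FoxD3 array numbered 2. The rise against FoxD3 was 1.17 (SE 0.28, adjusted p = 0.0203), with all 6 probe sets at 0.55 to 1.17. Against the empty vector it had 0.81 (adjusted p = 0.306, with the block 0.00984). The call against FoxD3 ended with arrays centred on their medians (adjusted p = 0.217) and without any of FoxD3 replicates 1, 3 and 4 or FoxD3-VP16 replicates 2 and 3 (adjusted p = 0.0537 to 0.0704), with 9.92e-05 to 0.217 over 25 alternatives.

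The 4 members that fell with the block in FoxD3-VP16 against the empty vector were Dnaja3, Dnajc11 and Hspa9 of the mitochondria and Dnajc2, which works at the ribosome. Dnaja3, a J-domain partner of Hspa9, had -0.44 (SE 0.15, adjusted p = 0.309, with the block 0.0161), Dnajc11, of the complex that shapes the inner membrane, -0.53 (adjusted p = 0.535, with the block 0.0172), and Dnajc2 -0.36 (adjusted p = 0.711, with the block 0.0354). All 4 were lower in 4 of 4 pairs. The probe sets of Dnajc2 disagreed: the next brightest had -0.34, but the dimmer ones had 0.03 and 0.44. Dnajc21, which helps the large ribosomal subunit mature, had -0.49 in FoxD3-VP16 against FoxD3 (adjusted p = 0.333, with the block 0.0199), and -0.20 with the mean of its probe sets. Dnaja1, an abundant cytosolic HSP40, had 0.09 with FoxD3 (95% interval -0.125 to 0.312) and passed in neither fit of any comparison.

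Genes that work with these chaperones but lie outside the symbol rule were counted from 5 lists. Of 19 tested HSP90 cochaperones and heat shock factor targets, 0 were called with either transgene against the empty vector in limma without the block. An unadjusted p under 0.05 was found for 3 with FoxD3 and 2 with FoxD3-VP16 (16.1% and 10.3% of all tested genes). With the block 5 rose and 2 fell with FoxD3 (backgrounds 11.8% and 9.21% of all tested genes), and 0 and 2 with FoxD3-VP16 (backgrounds 5.73% and 5.41%). In FoxD3-VP16 against FoxD3, 0 rose and 2 fell (backgrounds 4.44% and 5.13%), and 1 rose and 6 fell with the block (backgrounds 14.6% and 17.5%). The 2 were Stub1, the ubiquitin ligase CHIP that docks on HSP70 and HSP90 (-0.65, SE 0.15, adjusted p = 0.0187), and Unc45a, an HSP90 cochaperone for myosin (-0.79, SE 0.23, adjusted p = 0.0496). With FoxD3 these had 0.47 and 0.78 and passed with the block (adjusted p = 0.00164 and 0.00193), as did the collagen chaperone Serpinh1 (0.85, adjusted p = 0.195, with the block 0.000262) and the small heat shock protein Cryab (0.37, adjusted p = 0.487, with the block 0.00459). The median of this list was 0.14, 0.02 and -0.14 in the 3 comparisons.

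Of 14 subunits of the cytosolic chaperonin TRiC and of prefoldin, 0 were called by limma in each comparison without the block. Of 10 HSP70 regulators likewise 0 were called. An unadjusted p under 0.05 was found for 0, 0 and 2 of the former and 1, 0 and 0 of the latter. Over all tested genes 16.1%, 10.3% and 23% had such a p. With the block the former had 1 riser with FoxD3, 1 with FoxD3-VP16, and 1 riser and 1 faller between them, and the latter 1 riser, 1 faller and 1 faller; the backgrounds with the block were 11.8% and 9.21%, 5.73% and 5.41%, and 14.6% and 17.5% higher and lower in the 3 comparisons. Of 9 mitochondrial chaperones and proteases 0 were called with either transgene against the empty vector (limma, 1 and 1 at an unadjusted p under 0.05, 1 riser and 2 fallers with the block, against those backgrounds). In FoxD3-VP16 against FoxD3 1 of the 9 fell without the block (background 5.13%), the protease Htra2 (-0.66, SE 0.17, adjusted p = 0.0239), and 4 fell with it (background 17.5%). The 5 chaperones of the endoplasmic reticulum left out by the rule, which report the unfolded protein response, had differences of -0.02 to 0.27 with FoxD3 and passed in neither limma fit of any comparison (0 at an unadjusted p under 0.05).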

How the data were processed

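RNA levels were measured on 12 one-colour arrays, 4 for each of 3 vectors, and groups and replicate numbers came from the sample titles. The authors deposited linear intensities of 45101 probe sets per array. MAS5 is named per the submitters' processing notes, with its version not given in the sources used here; dChip appears in a label as the submitters' analysis program. After trimming 2% of the deposited intensities at each end, every array had a mean of 500.003 to 500.004, while array medians of log2(intensity + 16) spanned 0.79.

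From these, log2(intensity + 16) was quantile-normalized, since the span exceeded 0.5. The 64 control probe sets, the 932 with several symbols and the 9160 not listed in the annotation were left out, and 34945 remained. For each gene the probe set with the highest mean was taken; 44 members had several, of 165 in all. The lowest 40% of genes by mean, below 5.98, were left out, among them 15 members with means of 4.39 to 5.91. Comparisons were made with limma 3.58.1 in R 4.3.3 (eBayes with an intensity trend, 9 residual and 3.98 prior degrees of freedom) over all 12 arrays without a block, adjusted by Benjamini-Hochberg over the 10916 genes tested. The calculation was tested on simulated data. Promoters were searched and plots drawn in Python 3.11.15 with matplotlib 3.10.9.

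Each array's deviation from its group mean was correlated with those of arrays of other groups, across genes. The correlation was 0.369 to 0.672 for the 12 same-number pairs, 0.370 to 0.536 for 6 pairs of a number 3 with a number 4, and -0.511 to 0.118 for the remaining 30. The numbers were therefore taken to pair the samples, although the correlation does not separate number 3 from number 4. The source is this correlation, since what the numbers mark is not in the labels. A fit with the number as a block (6 residual and 7.30 prior degrees of freedom) stands beside a result where it changes a call or moves a count by over 1.5 times. The main calls, standard errors, intervals and fits that left out 1 array did not use this pairing. The 3 members called with FoxD3 and the 8 called in FoxD3-VP16 against FoxD3 were also called with the block. Leaving out 1 array without the block makes the numbers unequal between the vectors. Its part in the calls that then ended was not tested. P-values measure the spread between these arrays, which may be technical, and the precision is limited by how many arrays there are.

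The members, the gene lists and the tests were chosen with earlier results of these data known. Named members are those called without the block, the up to 8 largest called only with it in each comparison, and 17 given whether or not they passed, of which 16 are on the table and 15 were tested, making 30 in all. Members outside this rule that are named were chosen after their values were seen. Each analysis was repeated under 25 alternatives, which changed the pseudocount, normalization, brightness filter, probe set, weights, block or arrays; the block without the arrays numbered 1 was added after seeing the data.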

Additional observations from a re-analysis of the deposited data

Results flagged for a closer look

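For 5 of the 87 groups of 4 arrays examined among the named members, 1 array lay far from the other 3 by Dixon's criterion at 95%; chance gives about 1 in 20 groups. Dnajc12 read 10.03 on the FoxD3-VP16 array numbered 1 and 9.09 to 9.18 on the others. Hsph1 read 12.73 on the FoxD3 array numbered 1 and 12.41 to 12.45 on the others. Hspb6 read 8.63 on that array and 9.07 to 9.16 on the others, and Dnajb6 read 12.80 there and 12.15 to 12.25 on the others. Hspd1 read 14.29 on the FoxD3-VP16 array numbered 2 and 14.65 to 14.72 on the others. The first 4 lie on arrays numbered 1, which stand apart in their controls; the part of this in the values was not tested.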

How the results depend on the processing

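Of the 54 tested members, 3, 0 and 8 were called in FoxD3 against empty vector, FoxD3-VP16 against empty vector and FoxD3-VP16 against FoxD3. With the replicate number as a block the counts were 12, 8 and 21, with array quality weights 18, 16 and 26, and without the arrays numbered 1 they were 6, 2 and 10. With the block and without those arrays they were 10, 10 and 19. With arrays centred on their medians they were 2, 0 and 5. Leaving out each array in turn, without the block, gave 2 to 4, 0 to 1 and 2 to 9. The last fell by over 1.5 times without FoxD3 replicate 4 (2 members), FoxD3-VP16 replicate 4 (3), FoxD3-VP16 replicate 2 or 3 (4 each) and FoxD3 replicate 2 or 3 (5 each). Over all genes the counts were 438, 65 and 1045. They were 2297, 1217 and 3498 with the block, 4193, 3465 and 4455 with weights, and 187, 8 and 420 with centring, which also moved the share of risers from 72.1% to 88.8% in the first comparison and from 46.4% to 35.2% in the third. Without the arrays numbered 1 they were 870, 277 and 1815, and 1991, 1439 and 3355 with the block as well. Leaving out the lowest 60% of genes gave 274 in the first, fitting only the groups compared gave 20 in the second, and leaving out each array gave 197 to 555, 13 to 82 and 602 to 1214. No called value of a named member changed sign under the 25 alternatives; of 1772 uncalled values 83 did. The cause of these differences was not tested. Dim members and those near the top of the range limit what can be seen.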

Other observations

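Of the 15 members below the brightness limit, which were not tested, Hspa12b, an endothelial relative of HSP70, had mean log2 levels of 5.16, 5.83 and 4.80 in the empty vector, FoxD3 and FoxD3-VP16 groups. Dnajb13, a J-domain protein of sperm, had 5.87, 6.29 and 5.58, and the probe set of Hspa1a had 4.99, 5.26 and 5.07. The largest difference among the 15 with FoxD3 was that of Hspb7 (1.25).

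Dnajc17, which works with splicing factors, had 0.66 with FoxD3 and 0.76 with FoxD3-VP16, higher in 4 of 4 pairs in both, and passed in neither fit (limma, adjusted p = 0.568 and 0.672 without the block, 0.0685 and 0.0596 with it).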
